A study of Mus musculus with 10 samples.

Results

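Endothelial cells line the capillaries that run through every pancreatic islet, and 30 genes that mark these cells were followed in islets with and without β cell FIT2, among the 47340 genes of the deposited table. The genes were taken by name, and all 30 were found in the table, each in 1 row. Each of 10 male mice, chow fed and 12 wk old, gave 1 RNASeq library, 5 from mice without β cell FIT2 (βFIT2KO, KO) and 5 from floxed controls (FL). Both groups carry loxP sites at the gene of FIT2 (Fitm2), a protein of the endoplasmic reticulum needed for lipid droplet formation. KO mice also carry a Cre transgene, from the strain B6.Cg-Tg(Ins2-cre)25Mgn/J, that a rat insulin promoter drives in β cells, and no library with Cre alone was analysed here. The labels give the FL genotype as wild type and the sample names give it as Flox. Islets were kept overnight in complete CMRL medium before polyadenylated RNA was extracted, so that the values describe whole cultured islets.

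Islet capillaries are dense and fenestrated, which lets insulin enter the blood quickly. They are held in this state by VEGF-A, which β cells secrete and which binds the receptors VEGFR2 (Kdr) and VEGFR1 (Flt1) on endothelial cells. Angiopoietins act beside it on the receptor Tie2 (Tek), while VE-cadherin (Cdh5), PECAM-1 (Pecam1) and claudin-5 (Cldn5) join the cells to each other. ETS factors (Erg, Fli1) and SoxF factors (Sox7, Sox17, Sox18) keep endothelial genes active.

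Values are FPKM, fragments scaled by the length of the gene and the size of the library, so that levels can be set side by side between genes. All 30 genes were above 0 in all 10 libraries. The 10 libraries summed to between 627084 and 675470 FPKM, and no pair of libraries was identical. FPKM keep no read numbers, but the smallest values move in steps of 1 read. From these steps the other FL libraries were 1.41 to 2.41 times as deep as FL mouse 1, and the KO libraries 1.51 to 2.05 times as deep. Fitm2 itself averaged 23.3 ± 9.86 FPKM in FL islets against 6.95 ± 2.36 in KO islets (SD, n = 5 each), and every KO mouse lay below every FL mouse.

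The promoters of 2 genes called higher in KO are shown here, because these were the called genes with a RefSeq promoter that holds no annotated exon in the 250 bases before the start site. Eng encodes endoglin, a co-receptor for BMP9, and its promoter is chr2:32646345-32646594 on the plus strand of GRCm38.p6. Cldn5 encodes the claudin of endothelial tight junctions, and its promoter is chr16:18776597-18776846 on the plus strand. Capitals mark the ETS-type motif AGGAAG on either strand.
Eng: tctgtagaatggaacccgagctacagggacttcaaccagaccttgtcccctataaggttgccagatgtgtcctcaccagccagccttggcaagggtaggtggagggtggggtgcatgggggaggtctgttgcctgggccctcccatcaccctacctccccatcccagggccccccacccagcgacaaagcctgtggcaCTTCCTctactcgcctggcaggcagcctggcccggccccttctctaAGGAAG
Cldn5: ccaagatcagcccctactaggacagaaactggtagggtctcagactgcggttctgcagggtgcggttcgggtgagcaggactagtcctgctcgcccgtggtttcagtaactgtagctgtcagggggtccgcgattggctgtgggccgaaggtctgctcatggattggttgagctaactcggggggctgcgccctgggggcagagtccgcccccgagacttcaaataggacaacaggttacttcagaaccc
The Eng promoter holds the motif on the minus strand from -52 to -47 and on the plus strand from -6 to -1, counted from the start site, and the Cldn5 promoter does not hold it. Only 13 of the 30 endothelial genes are in the RefSeq table, some with more than 1 promoter. Over these genes AGGAAG was present in 10 of 17 promoters (58.8%), against 29.5% of all 32851 promoters of the same length. By gene, AGGAAG was present for 9 of the 13. The SOX-type motif AACAAT, which does not overlap it, was present in 3 of 17 (17.6%), those of Emcn, Erg and Tek, against 9.42% of all promoters. These counts describe letters in a window, and binding was not measured.

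Of the 30 endothelial genes, 13 rose in KO islets and none fell. The mean of KO exceeded the mean of FL in 29 of the 30 genes, the exception being Ramp2. With limma on log2(FPKM + 1), 28 genes could be tested, and 13 rose at an adjusted p of at most 0.05, where 9.05% of all 13065 genes tested rose. None fell, where 16.5% of all genes fell, and none of the 28 was lower at an unadjusted p of at most 0.05. The median log2 fold change over the 28 genes was 0.28, from -0.19 to 0.54, and the median over all genes tested was -0.06. It was above 0 in 27 of the 28, against 38.1% of all genes tested. In 6 genes every KO mouse lay above every FL mouse, as in 6.67% of all genes tested. Cldn5, Fli1 and Sox7 entered the test through KO alone, since their FL means were under 1 FPKM, so the 28 genes are not a neutral count. Without a filter all 30 genes were tested, and 9 of them rose. Upper-quartile rescaling turned the 1183 higher and 2150 lower calls over all genes into 1677 and 1454, median-ratio rescaling into 1546 and 1685, and 17 endothelial genes rose under either. Rescaling to equal sums gave 1470 and 1536, with 18 of 30 endothelial genes higher. On the log2(FPKM + 1) scale, without rescaling or sample weights and with all 10 mice, no endothelial gene reached 1.5-fold. Cd34 was nearest at 1.46-fold, and passed it under each of 3 rescalings.

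**Figure D1:**
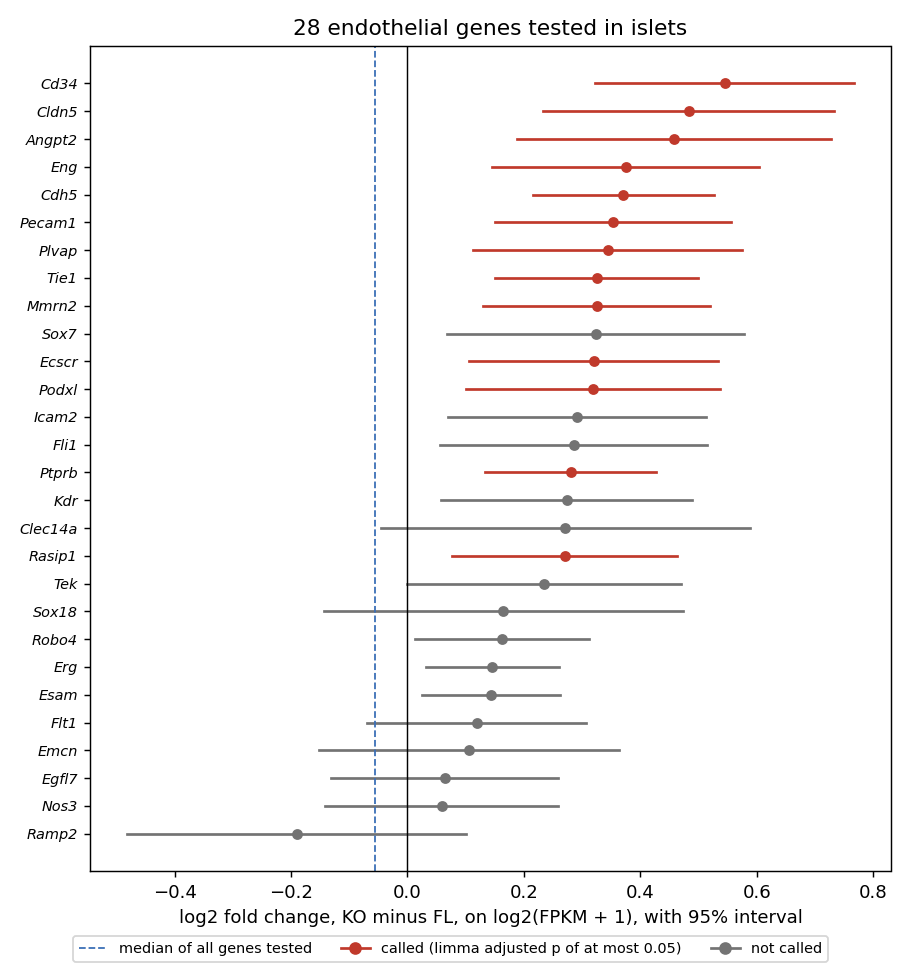
Log2 fold changes (KO minus FL, log2(FPKM + 1) scale) of the 28 endothelial genes tested, with 95% intervals from limma. Of these points, 27 lie above 0, where 38.1% of all genes tested do, and 13 are called (red). The dashed line is the median of all genes tested, at -0.06.

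More endothelial cells and more RNA per endothelial cell cannot be told apart in these libraries, and FPKM are shares of the RNA of the whole islet. Genes of other cells moved beside the endothelial genes, and their part in the result was not tested. Summed over 12 β cell genes, FL libraries ranged from 2975 to 3734 FPKM and KO libraries from 2086 to 2857 FPKM, and 8 of the 11 tested fell (16.5% of all genes). Of these genes Iapp, a peptide hormone gene that β cells express strongly, is listed at 0 in all 10 libraries. Summed over 15 leukocyte and macrophage genes, the range was 171.5 to 209.9 FPKM in FL and 249.4 to 291.1 FPKM in KO, and 7 of 13 tested rose (9.05% of all genes). Icam2, Fli1 and Pecam1 are also transcribed in leukocytes. Of 12 acinar genes tested, 0 were called by limma (0 also at an unadjusted p of at most 0.05), with a median log2 fold change of -0.37 (from -0.55 to 0.03), and the sums of 13 such genes overlapped, from 4652 to 12390 FPKM in FL libraries and from 3088 to 22700 in KO libraries.

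Junction and surface proteins included the firmest differences. Cd34, a sialomucin of capillary endothelium that fibroblast progenitors also carry (chr1:194938819-194961279, plus strand, GRCm38), stood at 18.1, 22.3, 20.1, 25.2 and 20.6 FPKM in FL mice 1 to 5. In KO mice 1 to 5 it stood at 33.2, 26.8, 28.1, 32.8 and 36.7 FPKM. The lowest KO mouse was above the highest FL mouse, and the log2 fold change was 0.54 (SE 0.10, limma adjusted p = 0.00293).

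Cdh5, the cadherin of endothelial adherens junctions (chr8:104101625-104144511, plus strand), gave 14.9, 16.7, 15.8, 14.2 and 13.3 FPKM in FL mice and 20.6, 18.3, 17.8, 20.2 and 21.3 FPKM in KO mice. Both groups were tight and separate, with a log2 fold change of 0.37 (SE 0.07, limma adjusted p = 0.00336). Pecam1, an adhesion molecule at the same contacts (chr11:106654217-106750628, minus strand), gave 23.9, 24.6, 22.1, 21.3 and 17.1 FPKM in FL mice and 25.5, 27.0, 30.2, 27.1 and 30.1 FPKM in KO mice. The groups did not overlap, although KO mouse 1 was close to FL mouse 2, and the log2 fold change was 0.35 (SE 0.09, limma adjusted p = 0.0173).

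Cldn5 (chr16:18776847-18778262, plus strand) was scarce, at 0.736, 0.770, 0.464, 0.648 and 0.422 FPKM in FL mice and 1.51, 1.38, 1.41, 0.913 and 1.04 FPKM in KO mice. Its mean in KO was 106% above that in FL, the widest relative gap among the 30 genes, but a log2 fold change of 0.48 on the scale with 1 added (SE 0.11, limma adjusted p = 0.0107) understates that gap. Cldn5 entered the test through KO alone, and its adjusted p without the filter was 0.01001. Esam, a further adhesion molecule of endothelial contacts, gave 17.2, 19.1, 17.2, 16.3 and 15.7 FPKM in FL mice and 19.1, 19.8, 18.3, 18.5 and 19.1 FPKM in KO mice. FL mouse 2 lay within the KO range, and the difference did not pass the threshold (log2 fold change 0.14, 95% interval 0.03 to 0.26, limma adjusted p = 0.0743), but it did after each of 3 rescalings (0.0259 to 0.0408) and without FL mouse 2 (0.0226). Icam2, an intercellular adhesion molecule, averaged 3.54 ± 0.687 FPKM in FL against 4.50 ± 0.261 in KO (SD, n = 5 each; limma adjusted p = 0.0546), and was called after each of 3 rescalings (0.0297 to 0.0358) and without FL mouse 2 (0.021). Podxl, a sialomucin of the luminal surface, gave 6.32, 8.85, 6.89, 6.71 and 6.50 FPKM in FL mice and 8.99, 10.1, 7.22, 9.23 and 9.63 FPKM in KO mice. It rose by a log2 fold change of 0.32 (SE 0.10, limma adjusted p = 0.0370), and FL mouse 2 and KO mouse 3 were the libraries that crossed.

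**Figure D2:**
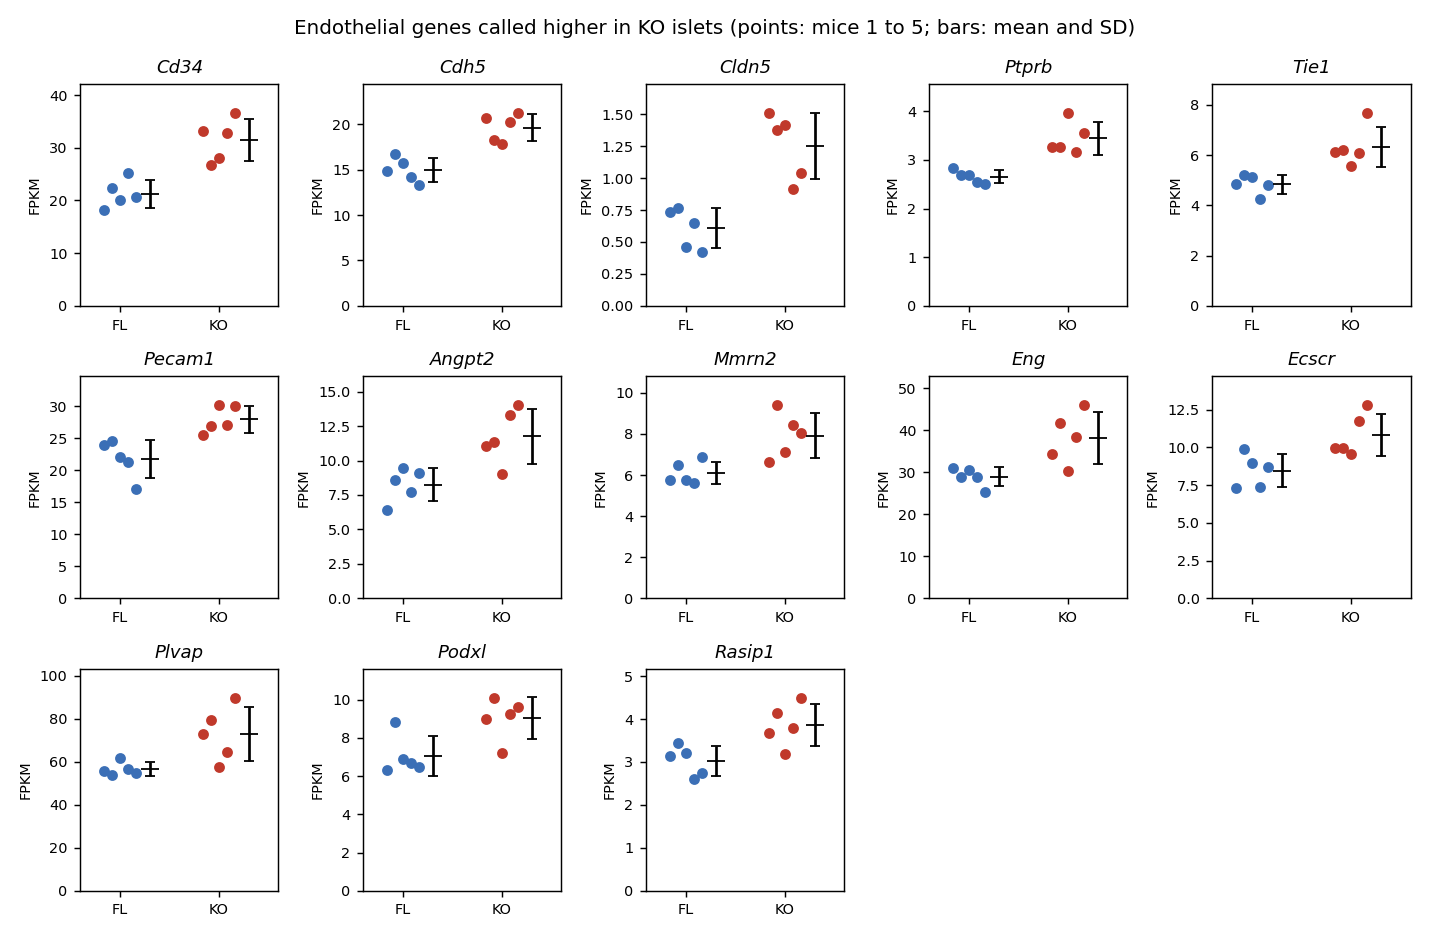
FPKM of the 13 endothelial genes called higher in KO, by mouse (blue FL, red KO), with the mean and SD of each group. In Cd34, Cdh5, Cldn5, Ptprb, Tie1 and Pecam1 the lowest KO mouse lies above the highest FL mouse, and in the other 7 panels the groups overlap.

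Plvap forms the diaphragms of fenestrae, and it had the highest level of the 30 genes (chr8:71497765-71511752, minus strand). It gave 55.8, 53.7, 61.8, 56.8 and 54.8 FPKM in FL mice and 73.1, 79.3, 57.4, 64.6 and 89.8 FPKM in KO mice. KO mouse 3 fell inside the FL range and KO mouse 5 was far above it, so that the SD of FL was 3.14 FPKM and that of KO 12.6 FPKM. The log2 fold change was 0.34 (SE 0.10, limma adjusted p = 0.0334), and it was not called without a filter on low FPKM (adjusted p = 0.0672). Emcn, the endomucin of capillaries and veins, was second in level at 37.5, 50.1, 44.3, 45.1 and 39.1 FPKM in FL mice and 46.7, 50.8, 34.5, 49.2 and 53.0 FPKM in KO mice. Its groups overlapped widely, since KO mouse 3 was the lowest of all 10 mice (log2 fold change 0.11, 95% interval -0.15 to 0.36, limma adjusted p = 0.548).

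Of the receptors, Kdr, the main VEGF-A receptor (chr5:75932827-75978458, minus strand), stood at 20.7, 22.0, 22.4, 24.5 and 19.9 FPKM in FL mice and 26.4, 30.3, 20.5, 27.7 and 29.3 FPKM in KO mice. The other 4 KO mice were above all FL mice, but KO mouse 3 was below 4 FL mice, and the log2 fold change of 0.27 did not pass the threshold (95% interval 0.06 to 0.49, limma adjusted p = 0.0625). Without KO mouse 3 it did (log2 fold change 0.36, limma adjusted p = 0.00377), as it did after median-ratio (0.0409), upper-quartile (0.0341) and equal-sum rescaling (0.0453) and with sample weights (0.027). Flt1, which binds VEGF-A, VEGF-B and PlGF, averaged 14.1 ± 1.82 FPKM in FL against 15.3 ± 1.30 in KO (SD, n = 5 each), with a log2 fold change of 0.12 (95% interval -0.07 to 0.31, limma adjusted p = 0.340).

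Tie1, an orphan partner of Tie2, gave 4.83, 5.20, 5.11, 4.24 and 4.79 FPKM in FL mice and 6.13, 6.19, 5.57, 6.08 and 7.69 FPKM in KO mice. The groups were separate, with a log2 fold change of 0.33 (SE 0.08, limma adjusted p = 0.0125). Tek itself gave 1.73, 1.79, 2.17, 2.58 and 1.55 FPKM in FL mice and 2.26, 2.70, 2.03, 2.58 and 2.80 FPKM in KO mice. Its groups overlapped (log2 fold change 0.23, 95% interval -0.000931 to 0.47, limma adjusted p = 0.134), and the difference was called in 1 of 21 alternatives, without FL mouse 4. Ptprb, the phosphatase that dephosphorylates Tie2, gave 2.84, 2.68, 2.70, 2.54 and 2.502 FPKM in FL mice and 3.26, 3.26, 3.97, 3.15 and 3.56 FPKM in KO mice. It rose without overlap (log2 fold change 0.28, SE 0.07, limma adjusted p = 0.0114).

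Angpt2, the angiopoietin that endothelial cells release and that antagonises Tie2 in many settings, gave 6.398, 8.60, 9.44, 7.74 and 9.08 FPKM in FL mice and 11.1, 11.4, 8.99, 13.3 and 14.0 FPKM in KO mice. Again KO mouse 3 was the only KO mouse inside the FL range, and Angpt2 rose by a log2 fold change of 0.46 (SE 0.12, limma adjusted p = 0.0192). Eng (chr2:32646595-32682669, plus strand) gave 31.0, 28.9, 30.6, 28.9 and 25.2 FPKM in FL mice and 34.2, 41.7, 30.2, 38.3 and 46.0 FPKM in KO mice. It rose by a log2 fold change of 0.38 (SE 0.10, limma adjusted p = 0.0229), with KO mouse 3 below 2 FL mice.

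Among matrix-facing and secreted proteins, Mmrn2, which binds the lectin Clec14a, gave 5.75, 6.46, 5.73, 5.64 and 6.86 FPKM in FL mice and 6.63, 9.40, 7.10, 8.43 and 8.02 FPKM in KO mice. It rose by a log2 fold change of 0.33 (SE 0.09, limma adjusted p = 0.0207), and only KO mouse 1 was inside the FL range. Clec14a averaged 2.26 ± 0.350 FPKM in FL against 2.99 ± 0.836 in KO (SD, n = 5 each; limma adjusted p = 0.194, and 0.0365 without KO mouse 2). Egfl7, a secreted protein of vessel sprouts, gave 27.95, 36.7, 34.2, 33.1 and 35.4 FPKM in FL mice and 34.0, 36.6, 32.6, 30.9 and 41.0 FPKM in KO mice. These values were interleaved (log2 fold change 0.06, 95% interval -0.13 to 0.26, limma adjusted p = 0.636). It overlaps Gm20532 on the same strand, so its level is uncertain.

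Ecscr, a regulator of endothelial migration, gave 7.34, 9.90, 8.96, 7.40 and 8.68 FPKM in FL mice and 9.93, 9.97, 9.58, 11.8 and 12.8 FPKM in KO mice. The other 4 KO mice were above all FL mice and KO mouse 3 was below FL mouse 2, with a log2 fold change of 0.32 (SE 0.10, limma adjusted p = 0.0329). Rasip1, an effector of Rap1 needed for vessel lumens, averaged 3.03 ± 0.345 FPKM in FL against 3.87 ± 0.492 in KO (SD, n = 5 each; log2 fold change 0.27, SE 0.09, limma adjusted p = 0.0434). The gene overlaps Izumo1 on the same strand, and its call was lost in 12 of 21 alternatives, more often than that of any other of the 13 called endothelial genes.

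Without a filter on low FPKM, Plvap, Ecscr (limma adjusted p = 0.0686), Rasip1 (0.0932) and Podxl (0.0763) were not called. The calls of 6 endothelial genes depended on single mice, with limma adjusted p of 0.0505 to 0.0971 where a call was lost. Podxl was not called without any 1 of FL mice 1, 3, 4 and 5 and KO mice 1, 2, 4 and 5 (0.0698 to 0.0821), and Rasip1 was lost without the same mice (0.0617 to 0.0971). Plvap was lost without any 1 of FL mice 1, 2, 4 and 5 and KO mice 1, 2 and 5 (0.0578 to 0.0699), and Ecscr without FL mice 1, 4 or 5 or KO mice 4 or 5 (0.0558 to 0.0792). Eng was lost without FL mouse 5 (0.0561) or KO mouse 4 (0.0505), and Mmrn2 without FL mouse 3 (0.0505) or KO mouse 4 (0.0527). Cd34, Cdh5, Cldn5, Ptprb, Tie1, Pecam1 and Angpt2 kept their calls without each mouse in turn.

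Ramp2, which with Calcrl forms the adrenomedullin receptor, was the exception in direction. It gave 13.7, 16.5, 17.6, 20.5 and 18.2 FPKM in FL mice and 14.0, 20.7, 14.99, 13.5 and 12.5 FPKM in KO mice. The groups overlapped, KO mouse 2 was the highest of all 10, and the log2 fold change of -0.19 had a 95% interval of -0.48 to 0.10 (limma adjusted p = 0.323). Ramp2 overlaps Vps25 on the same strand, where reads could be shared between the genes. Eng, Fli1 and Ptprb also overlap annotated genes on the same strand, none of them listed as protein-coding. On the opposite strand, protein-coding genes overlap Eng (Fpgs), Plvap (Gtpbp3), Egfl7 (Agpat2), Nos3 (Atg9b), Ecscr (1700066B19Rik) and Angpt2 (Mcph1). Whether strand was used in counting is not given, so reads could be shared there too.

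Of 5 ETS and SoxF genes, 4 were tested, Erg, Fli1, Sox7 and Sox18, and none was called by limma. Over all genes tested 9.05% rose and 16.5% fell, so no call among 4 genes says little about these factors. Fli1 and Sox7 entered the test through KO alone, and Sox17 was too low to be tested. Erg averaged 4.96 ± 0.164 FPKM in FL against 5.60 ± 0.340 in KO (SD, n = 5 each; log2 fold change 0.15, limma adjusted p = 0.0618). Fli1 averaged 0.721 ± 0.123 against 1.10 ± 0.223 FPKM (adjusted p = 0.0670 from limma) and Sox7 0.959 ± 0.256 against 1.44 ± 0.255 FPKM (adjusted p = 0.0629 from limma; SD, n = 5 each). On their means Fli1 was 53.0% and Sox7 50.6% higher in KO. Under other settings limma called Erg after each of 3 rescalings (adjusted p 0.0255 to 0.0309) and without a variance trend (0.049). Fli1 was called after rescaling to equal sums (0.0439), without the trend (0.0277), with robust variances (0.0499), with sample weights (0.0269) and without KO mouse 2 (0.0337). Sox7 was called without the trend (0.0395), with sample weights (0.0304) and without FL mouse 1 (0.05, not above the threshold before rounding). Sox18 had the smallest coefficient of variation of the 30 genes in FL (1.44%, 7.72 to 7.997 FPKM) and a large one in KO (28.1%, 6.27 to 13.3 FPKM), where KO mouse 3 was lowest and KO mouse 5 highest (limma adjusted p = 0.428). Sox17 averaged 0.722 ± 0.190 against 0.816 ± 0.0672 FPKM (SD, n = 5 each).

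The remaining genes were Robo4, a guidance receptor that steadies vessels, at 6.39 ± 0.467 FPKM in FL against 7.28 ± 0.625 in KO (SD, n = 5 each; limma adjusted p = 0.103, and 0.0272 without KO mouse 3), and Nos3, the endothelial nitric oxide synthase. Nos3 averaged 1.07 ± 0.145 against 1.16 ± 0.162 FPKM (SD, n = 5 each; limma adjusted p = 0.675). Vwf, which encodes von Willebrand factor of larger vessels, was under the filter with means of 0.620 ± 0.127 FPKM (FL) and 0.940 ± 0.269 FPKM (KO; SD, n = 5 each; exact two-sided permutation test, unadjusted p = 0.0476, where 0.00794 is the smallest p possible). For Sox17, also under the filter, the same permutation test gave an unadjusted p of 0.278. Without the filter neither was called by limma (adjusted p = 0.1405 for Vwf and 0.591 for Sox17).

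Mice of 1 group also differed among themselves, and many endothelial genes moved together. With each group centred on its own mean, the median Pearson r over the 378 pairs of tested genes was 0.26 across 10 mice, and 28.6% of pairs were above 0.5. Between these 28 genes and the 13037 other genes tested, the median was -0.07, and 7.59% of pairs were above 0.5. Genes share libraries and depth, so these values are a description. FL mouse 2 and KO mouse 5 were high, with 23 and 25 of 28 genes above their group mean. KO mouse 3 was the lowest KO mouse in 16 of 28 genes, and KO mouse 5 the highest in 14. Mean deviations on the log2 scale were -0.04, 0.09, 0.04, -0.02 and -0.06 in FL mice 1 to 5 and -0.02, 0.02, -0.13, 0.01 and 0.13 in KO mice 1 to 5. Without KO mouse 5 the median r was 0.20. It was above 0.26 over genes of at least 5 FPKM and after median-ratio and upper-quartile rescaling.

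**Figure D3:**
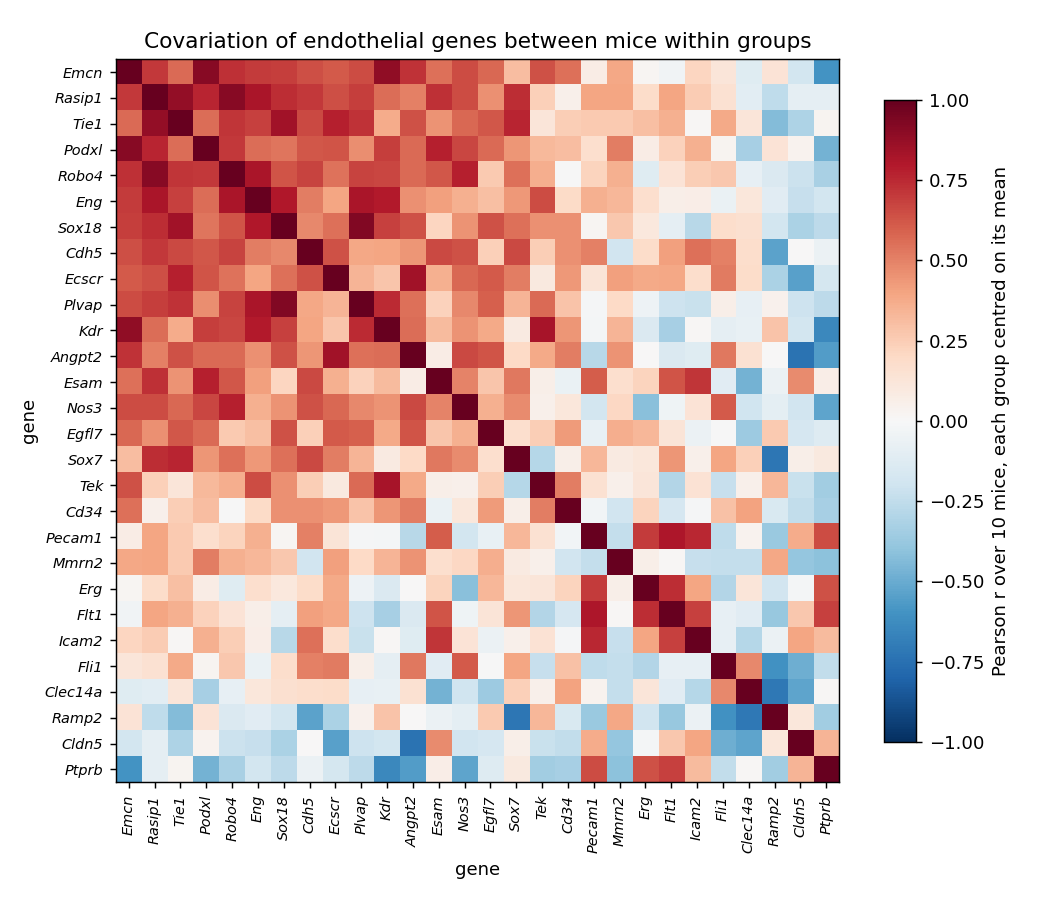
Pearson r between the 28 tested endothelial genes over 10 mice, each group centred on its mean, ordered by r with the mean of the other genes. Emcn (0.88) and Rasip1 (0.88) head the block at the upper left, while Ramp2, Cldn5 and Ptprb at the lower right are below 0 with that mean.

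The genes that followed the rest best were Emcn, Rasip1, Tie1, Podxl and Robo4, with r between 0.80 and 0.88 with the mean of the other 27 genes. Plvap and Sox18 formed the closest pair (r = 0.92), Rasip1 and Robo4 reached 0.91, and Emcn and Podxl reached 0.91. Pecam1, Flt1, Erg and Icam2 had r of 0.20 to 0.27 with the mean of the others, and the best partner of Pecam1 was Flt1 (r = 0.81). Ptprb (-0.29), Cldn5 (-0.29), Ramp2 (-0.26) and Clec14a (-0.105) did not follow. So Emcn, whose difference between KO and FL did not pass the threshold, followed the other genes most closely between mice, and Cldn5 and Ptprb, whose differences did, were not part of that block.

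Among 3 receptor and partner pairs, Kdr with Cdh5 gave r = 0.40 (rho = 0.27), Tek with Tie1 r = 0.12 (rho = 0.18) and Calcrl with Ramp2 r = 0.28 (rho = 0.07). In exact two-sided permutation tests within groups, adjusted over the 3 pairs, p was 0.699, 0.739 and 0.699 for r and 0.873 for each rho (unadjusted 0.288, 0.739 and 0.466 for r, 0.455, 0.62 and 0.873 for rho). Leaving out the 2 mice farthest from the median of the first gene gave r = 0.39, 0.63 and 0.11. No relation within these pairs was shown with 10 mice.

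**Figure D4:**
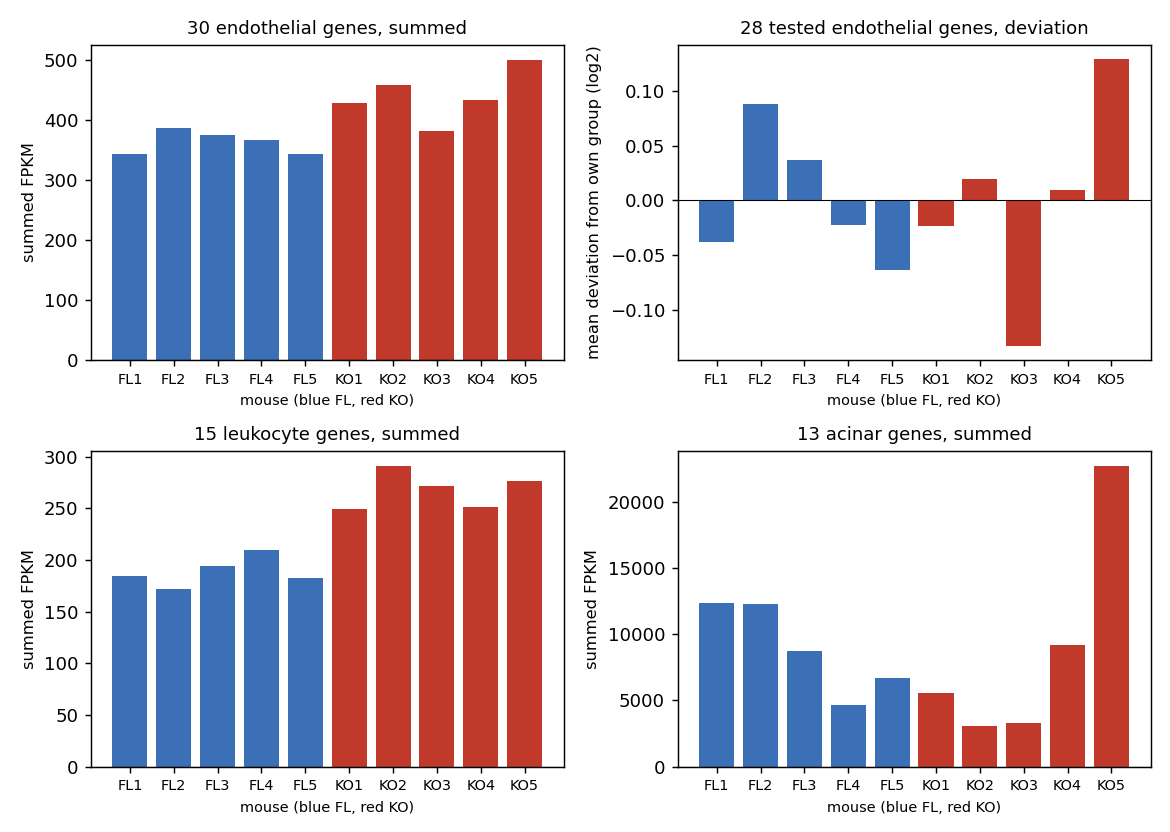
Bars give, for each mouse (blue FL, red KO), the summed FPKM of the 30 endothelial genes, the mean deviation of the 28 tested genes from their own group, and the summed FPKM of leukocyte and acinar genes. KO mouse 5 has the highest endothelial (499.9) and acinar (22700) sums, and KO mouse 3 the lowest endothelial sum of the KO mice (381.6).

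Summed over the 30 genes, FL libraries held 343.8, 385.9, 374.7, 366.1 and 342.6 FPKM and KO libraries 428.2, 457.8, 381.6, 432.9 and 499.9 FPKM. The other 4 KO mice were above all FL mice, and KO mouse 3 was below FL mouse 2. Some of 13 other lists deviated along with the endothelial genes between mice of a group and some did not, and their part in the covariation was not tested. Across 10 mice the mean deviation had r = 0.68 (rho = 0.44) with that of 12 acinar genes, 0.78 (rho = 0.55) with 7 ductal genes, 0.47 (rho = 0.25) with 7 pericyte genes and 0.05 (rho = 0.22) with 13 leukocyte genes. Without KO mice 3 and 5, the farthest from the median, r was 0.23 for acinar, 0.37 for ductal, 0.38 for pericyte and -0.10 for leukocyte genes. The values for acinar and ductal genes thus depended on these mice, as did those for further endothelial, Notch and ephrin, and lymphatic genes below. Leaving out these mice narrows the range of the endothelial deviation for every list. The VEGF and TIE list had r = 0.72 (rho = 0.73), and 0.85 without these mice. The values were 0.83 and 0.32 for further endothelial, 0.73 and 0.51 for BMP, 0.71 and 0.06 for Notch and ephrin, 0.71 and -0.05 for lymphatic, 0.45 and 0.20 for Schwann and neural and 0.37 and 0.33 for transport genes. Fibroblast genes gave 0.25 and -0.42, and β cell genes -0.32 and 0.18.

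The genes outside the list whose within-group pattern was most like the mean of the endothelial genes were, in order, Rgcc (r = 0.94), Ms4a4c (0.94), Rnh1 (0.93), Dlc1 (0.93), Serinc2 (0.93), Slc7a11 (0.91), Urah (0.91), Adcy4 (0.91), Ube2l6 (0.91) and Sfn (0.91). They were picked from 13037 genes for their r over 10 mice. Of these, Dlc1 (limma adjusted p = 0.0324), Slc7a11 (0.0285) and Adcy4 (0.0320) were higher in KO and Serinc2 (0.0138) was lower.

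The 3 VEGF family ligands that could be tested, Vegfa, Vegfb and Pgf, fell, while Vegfc and Vegfd were under the filter. Vegfa, the ligand of Kdr and Flt1 that β cells make, gave 250.7, 266.9, 279.7, 239.3 and 272.2 FPKM in FL mice and 203.7, 209.3, 217.3, 179.3 and 182.1 FPKM in KO mice. It fell without overlap, with a log2 fold change of -0.40 (SE 0.07, limma adjusted p = 0.00171). Of 11 genes in the list of VEGF and TIE ligands and co-receptors, which also holds the receptor gene Flt4, 6 could be tested, of which 3 fell and 1 rose (9.05% of all genes tested rose and 16.5% fell). Flt4 encodes VEGFR3 and had a log2 fold change of 0.14 (limma adjusted p = 0.228). Vegfb and Pgf are both ligands of Flt1 (log2 fold changes -0.32 and -0.38, limma adjusted p = 0.00297 and 0.00543). The co-receptor Nrp2 rose from 2.88 ± 0.387 FPKM to 4.02 ± 0.283 FPKM without overlap (SD, n = 5 each; limma adjusted p = 0.00609). The co-receptor Nrp1 averaged 8.57 ± 0.980 FPKM in FL against 8.30 ± 1.03 in KO (log2 fold change -0.04, 95% interval -0.24 to 0.16, limma adjusted p = 0.777).

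**Figure D5:**
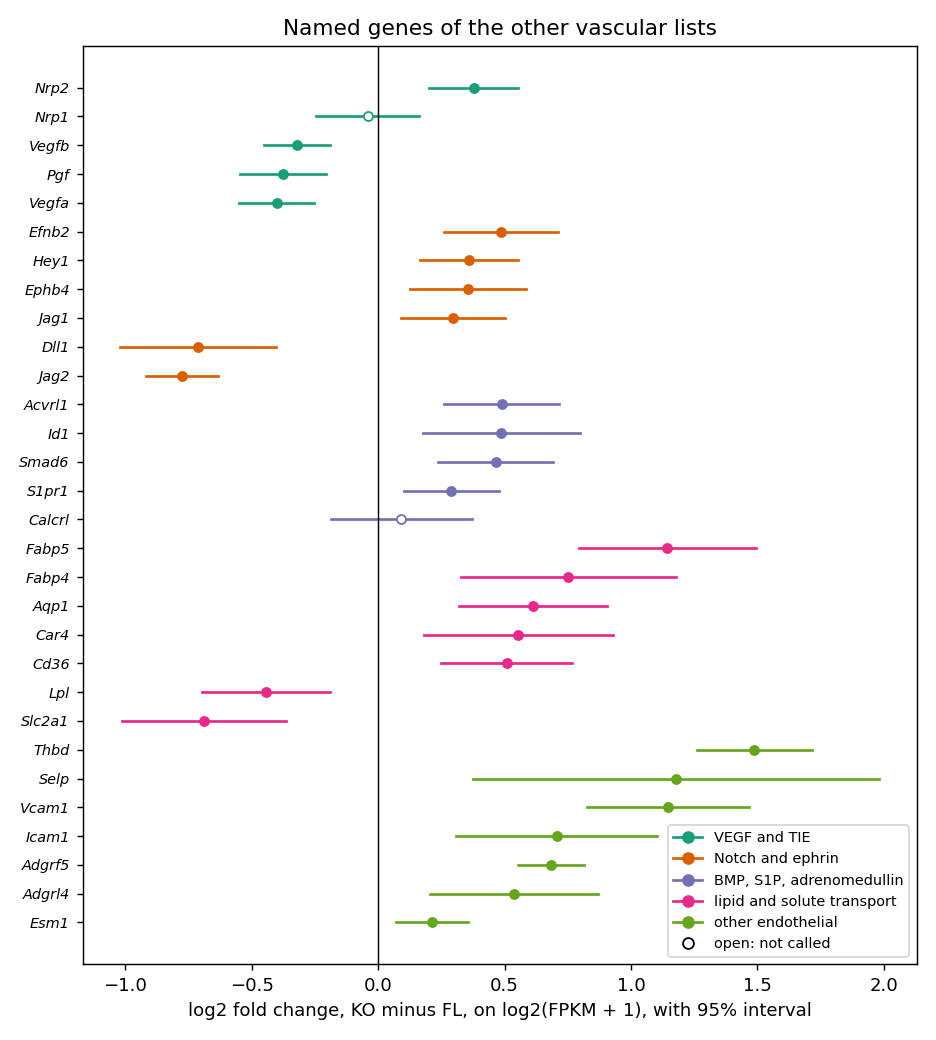
Log2 fold changes (KO minus FL, log2(FPKM + 1) scale) with 95% intervals for the called genes of 5 further vascular lists, with Nrp1 and Calcrl. Points are coloured by list and open for genes not called. Thbd (1.49) lies farthest right and Jag2 (-0.78) farthest left.

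Notch and ephrin signals sort arteries from veins. Of 10 such genes tested, 4 rose and 2 fell, where 9.05% of all genes rose and 16.5% fell. The arterial ligand Efnb2 rose from 3.03 ± 0.267 FPKM to 4.69 ± 0.899 FPKM, and its venous receptor Ephb4 from 2.23 ± 0.243 FPKM to 3.15 ± 0.576 FPKM (SD, n = 5 each; limma adjusted p = 0.00598 and 0.0280). The Notch ligand Jag1 and the Notch target Hey1 rose by log2 fold changes of 0.29 and 0.36 (limma adjusted p = 0.0401 and 0.0128). The Notch ligands Jag2 and Dll1 fell by 0.78 and 0.71 on the log2 scale (limma adjusted p = 1.27e-05 and 0.00391). Which cells of the islet these ligand transcripts came from was not measured. Jag1 was not called without any mouse but KO mouse 3 (0.054 to 0.0966), nor Ephb4 without FL mice 3, 4 or 5 or KO mice 1, 4 or 5 (0.0509 to 0.0646), and neither was called without the filter (0.0854 and 0.0610).

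Of 10 tested genes of the BMP, sphingosine-1-phosphate, adrenomedullin, apelin and endothelin systems, 4 rose and none fell by limma (none also at an unadjusted p of at most 0.05), where 9.05% of all genes rose and 16.5% fell. Acvrl1 encodes ALK1, the receptor that pairs with endoglin, and it rose from 8.47 ± 1.22 FPKM to 12.3 ± 1.61 FPKM without overlap (SD, n = 5 each; limma adjusted p = 0.00604). The BMP targets Smad6 and Id1 rose by log2 fold changes of 0.47 and 0.49 (limma adjusted p = 0.00788 and 0.0272), and the receptor S1pr1 by 0.29 (limma adjusted p = 0.0293). The related genes Smad7 and Id3 were not called, at log2 fold changes of -0.20 and 0.36 (limma adjusted p = 0.1998 and 0.05195). Id1 was not called without FL mice 2, 3 or 5 or KO mouse 4 (adjusted p 0.0536 to 0.0612), nor S1pr1 without FL mice 1 or 3 or KO mice 1, 4 or 5 (0.0553 to 0.0662), and neither was called without the filter (0.0604 and 0.0581). Calcrl, the partner of Ramp2, averaged 2.82 ± 0.437 FPKM in FL against 3.10 ± 0.674 in KO (log2 fold change 0.09, 95% interval -0.19 to 0.37, limma adjusted p = 0.633).

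Of 11 transport genes tested, 5 rose and 2 fell, beside the same shares of all genes (9.05% and 16.5%). Fabp4 and Cd36, which carry fatty acids in capillary endothelium and macrophages, rose by log2 fold changes of 0.75 and 0.51 (limma adjusted p = 0.0164 and 0.01004). The related Fabp5 rose from 8.44 ± 1.78 FPKM to 19.9 ± 4.36 FPKM without overlap (SD, n = 5 each; limma adjusted p = 0.000493). The water channel Aqp1 and the carbonic anhydrase Car4 were scarce and rose by 0.61 and 0.55 on the log2 scale (limma adjusted p = 0.00697 and 0.0339), and both entered the test through KO alone. Car4 was not called without FL mice 1, 4 or 5 or KO mice 1, 4 or 5 (adjusted p 0.055 to 0.0818), nor without the filter (0.0592). Lpl, a lipase that acts on the capillary wall, and the glucose transporter Slc2a1 fell by 0.44 and 0.69 (limma adjusted p = 0.0168 and 0.00653). In whole islets it was not measured which cells these transport transcripts came from, so the falls cannot be assigned to endothelium.

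Adhesion, clotting and receptor genes of endothelium made up a further list. Of 21 further endothelial genes tested, 7 rose and none fell by limma (1 was lower at an unadjusted p of at most 0.05), against 9.05% and 16.5% of all genes. Thbd, the thrombomodulin that restrains clotting, gave 5.55, 5.35, 5.17, 5.71 and 4.93 FPKM in FL mice and 21.2, 17.0, 12.97, 17.8 and 15.9 FPKM in KO mice. The KO values were far above the FL values, with a log2 fold change of 1.49 (SE 0.10, limma adjusted p = 2.98e-06). Vcam1, an adhesion receptor for leukocytes, gave 0.930, 0.462, 0.747, 1.27 and 0.972 FPKM in FL mice and 2.76, 3.79, 2.45, 2.66 and 4.15 FPKM in KO mice (log2 fold change 1.146, SE 0.15, limma adjusted p = 0.000272). It too was separate between the groups, although it is low and entered the test through KO alone.

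Icam1, a further leukocyte adhesion molecule, rose from 1.16 ± 0.261 FPKM to 2.60 ± 0.931 FPKM (SD, n = 5 each; limma adjusted p = 0.0156), with KO mouse 3 at 1.23 FPKM inside the FL range. P-selectin (Selp), listed at 0 in FL mouse 4, ranged from 0 to 1.56 FPKM in FL and from 0.607 to 4.53 FPKM in KO (limma adjusted p = 0.0362), entered the test through KO alone and was not called without the filter (0.0767). Adgrf5, an adhesion receptor of capillary endothelium and lung epithelium, rose from 5.25 ± 0.365 FPKM to 9.04 ± 0.594 FPKM, and Adgrl4, a further adhesion receptor, from 11.8 ± 2.73 FPKM to 17.3 ± 2.23 FPKM (SD, n = 5 each; limma adjusted p = 1.73e-05 and 0.0234), both without overlap. Esm1, a proteoglycan that VEGF-A induces in islet endothelium, rose by a log2 fold change of 0.21 (limma adjusted p = 0.0334), and it was not called without FL mice 1, 3, 4 or 5 or KO mice 1, 3, 4 or 5 (0.0548 to 0.0812). Selp was not called without FL mice 1, 2, 3 or 4 or KO mice 1, 2 or 5 (0.0564 to 0.0808), nor Adgrl4 without FL mouse 4 or KO mice 4 or 5 (0.05 to 0.0555). The lowest of these values for Adgrl4 was above 0.05 before rounding. Without the filter neither Esm1 (0.0521) nor Adgrl4 (0.0525) was called.

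Cells that lie next to capillaries were read from lists of their own. Over all genes 9.05% rose and 16.5% fell. Of 12 pericyte and smooth muscle genes, 7 were tested, 5 rose and 1 fell, but their sums of 44.9 to 65.97 FPKM in FL libraries and 48.6 to 58.6 in KO libraries overlapped. The median log2 fold change of the 7 was 0.41. Without Anpep, left out after its values were seen, the sums of the other 11 genes were 28.1 to 39.0 FPKM in FL libraries and 38.5 to 45.8 in KO libraries, which overlapped less. Those that rose were Pdgfrb, Rgs5, Kcnj8, Abcc9 and Des, and the gene that fell, Anpep, is also made by other cells. Of 10 fibroblast genes 7 were tested, 5 rose and 1 fell, with sums of 17.7 to 26.0 FPKM in FL and 26.8 to 35.5 FPKM in KO. Dpt, which rose, and Loxl1, which was not called, entered the test through KO alone. Without the filter Dpt was called (limma adjusted p = 0.0367), but Col1a1 (0.0955) and the pericyte gene Rgs5 (0.0687), which both rose with it, were not. Of 7 lymphatic genes 4 were tested, of which Lyve1 (9.07 to 4.59 FPKM) and Prox1 (12.8 to 10.6 FPKM) fell on their means (limma adjusted p = 9.55e-05 and 0.00337), Ccl21a is listed at 0 in all libraries, and sums were 25.5 to 28.4 FPKM in FL and 19.4 to 24.0 FPKM in KO. Lyve1 is also made by macrophages and Prox1 by endocrine cells.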

How the data were processed

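Libraries from polyadenylated, strand-specific RNA were read from a single end (75 nt). The authors deposited FPKM with a column per mouse. The submitters' processing notes name STAR 2.5.2a, Cuffnorm 2.2.1 and GRCm38 (mm10). The annotation release, the library scaling and whether strand was used in counting are not given in the sources used here. FPKM hold no read numbers, so counting error was not computed. KO was compared with FL by limma 3.58.1 (R 4.3.3; lmFit, eBayes with trend) on log2(FPKM + 1) over the 13065 genes whose FL or KO mean reached 1 FPKM, without covariates, with Benjamini-Hochberg adjustment over all of them and calls at an adjusted p of at most 0.05. The test was checked on simulated data. P-values measure the spread between mice. Coordinates are from GENCODE M21 (GRCm38) and promoters from RefSeq (GRCm38.p6). Correlations used log2(FPKM + 1) centred on each group mean (Python 3.11.15, numpy 2.4.6, scipy 1.17.1).

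The endothelial genes and the other lists were chosen with earlier results of these data known. Among the endothelial genes, values per mouse are given for the 12 called genes with the lowest p, genes without overlap, the 8 highest genes, Pecam1, Cdh5, Kdr and Tek. Values per mouse of Ramp2, Vegfa, Thbd and Vcam1 are given outside that rule, chosen after they were seen. Of the other vascular lists, called genes and Vegfa, Nrp1 and Calcrl are named. Outside that rule Flt4, Smad7 and Id3 are named, chosen after their values were seen. Alternatives were a pseudocount of 0.1, other filters, rescalings, variance models, sample weights, a replicate block, stricter thresholds and leaving out each mouse.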

Additional observations from a re-analysis of the deposited data

Results flagged for a closer look

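Dixon's criterion was applied to 60 genes named by rule in 2 groups each (120 groups of 5 mice), without Flt4, Smad7 and Id3. By it 5 groups held 1 mouse far from the other 4, where chance gives about 6. Among the endothelial genes this was Podxl in FL mouse 2, at 8.85 FPKM against 6.32 to 6.89 FPKM in the other FL mice. The others were Vegfb in KO mouse 2 (56.6 FPKM, the next at 49.1), Lpl in KO mouse 3 (83.3 FPKM, the next at 60.5), Cd36 in FL mouse 5 (13.05 FPKM, the next at 10.5) and Slc2a1 in KO mouse 3 (42.7 FPKM, the next at 28.5).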

How the results depend on the processing

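The number of endothelial genes called higher was 13, and 8 with the replicate block, 2 at an adjusted p of at most 0.01 and 0 when a change of at least 1.5-fold was required as well. It lay between 8 (without FL mouse 5 or KO mouse 4) and 15 (without KO mouse 3) when 1 mouse was left out, and between 17 and 18 after rescaling, and none was called lower in any alternative. Over all genes, 1666 were called at 0.01 and 639 with 1.5-fold, against 3333, and 2545 to 3427 with 1 mouse left out. Same-numbered FL and KO mice had correlations of -0.102 to 0.00305 in their deviations from the group mean, which show no pairing by number. These values cannot exclude that such mice were littermates, which the sample names do not give. With the block 2368 genes were called over all. The block ended the calls of Pecam1, Eng, Plvap, Ecscr and Rasip1, and of Jag1, Ephb4, S1pr1, Car4, Esm1 and Adgrl4 among the other named genes. The median r between endothelial genes was 0.26, against 0.38 over genes of at least 5 FPKM, 0.36 and 0.39 after median-ratio and upper-quartile rescaling, 0.20 to 0.28 with 1 mouse left out, and 0.20 without KO mice 3 and 5 together, an alternative chosen after seeing the data. Without 1 mouse, r ranged from -0.222 to 0.671 for Tek with Tie1 within groups and from -0.0325 to 0.4 for Calcrl with Ramp2 within groups. Egfl7 turned to -0.000285 with sample weights. The log2 fold change of Nrp1 turned to 0.00231 and 0.0187 under these rescalings, 0.0103 without FL mouse 2 and 0.019 without KO mouse 3, and ranged from -0.0911 to 0.019 with 1 mouse left out. The cause was not tested. Levels near or under 1 FPKM limit Vwf, Sox17, Cldn5, Fli1 and Sox7.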
